A study of Homo sapiens with 12 samples.

Results

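The p53 pathway was followed through 35 of its target genes in ARPE-19, an established human cell line derived from retinal pigment epithelium (RPE), the cell layer beneath the photoreceptors. The members were chosen by symbol from 40591 named genes in the count table, and 32 of them had enough reads to be tested. TNFRSF10C, TNFRSF10D and SPATA18 did not. Poly(A) RNA was read from 4 groups of 3 libraries each. WT stands for cells with no introduced open reading frame (ORF) named in the labels. GFP is a stable line with the fluorescent protein as its ORF, GSTA4 a stable line with glutathione S-transferase alpha 4, and OSK a stable line read here as carrying POU5F1, SOX2 and KLF4. The stable lines were collected after 4 days of ORF expression. The labels name no vector, promoter or clone and do not say whether libraries of the same group were separate cultures. P-values therefore measure the spread between these libraries, which may be technical, and the effect of an ORF cannot be told apart from other differences between lines.

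p53 is a transcription factor that is held low by the ligase MDM2 and accumulates after DNA damage, oxidative stress or oncogene activity. It binds pairs of short half-sites near its targets, which stop the cell cycle, start apoptosis, repair DNA, adjust metabolism and, through MDM2 and others, feed back on p53 itself. In RPE cells the pathway is studied for its part in arrest and death under oxidative damage. The members were grouped by these roles: 4 feedback genes, 5 arrest genes, 6 receptors of cell death, 8 intracellular death genes, 4 repair genes and 8 genes of metabolism and other functions.

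Promoter windows, from 250 bases before to 50 bases after the transcription start, were found for 27 of the 35 members in RefSeq on GRCh38.p14. The letters of a p53 half-site occurred on either strand in 3 of the 27, or 11.1%, against 6.54% of 27305 promoters of the same length. A pair of half-sites 0 to 13 bases apart occurred in 0 of the 27 and in 0.0293% of all promoters. The 3 stretches are shown because PLK2, AEN and FDXR are described by their values below. They are written 5′ to 3′ on the gene's strand, with the half-site in capitals.
PLK2: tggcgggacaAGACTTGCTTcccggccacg
AEN: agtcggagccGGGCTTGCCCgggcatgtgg
FDXR: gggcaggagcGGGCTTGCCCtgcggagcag
The PLK2 stretch lies at chr5:58460199-58460228 on the minus strand, the AEN stretch at chr15:88621296-88621325 on the plus strand and the FDXR stretch at chr17:74872986-74873015 on the minus strand. The AEN stretch lies inside the RefSeq span of the gene, chr15:88604683-88632281, so its window does not sit at the gene's first base. AEN and FDXR carry the same half-site letters. These are matches of letters, not measured binding, and a missing match says only that the letters are not in this window.

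Total counts ran from 12630675 to 17045454 per library, and 0 reads allow up to 0.177 to 0.239 CPM of a gene, from the 3-read floor. CPM stands for read counts after every library was scaled to the same size. The floor covers counting error only. GFP replicate 1 stood apart with 27349 genes detected, against 19488 to 22073 in the other 11 libraries. Mitochondrially encoded genes took 7.55% to 7.82% of reads in GSTA4 and 5.99% to 6.89% in the other groups. The introduced genes were high where the labels place them, with GSTA4 at 416 CPM ± 17.6 (SD, n = 3) in its own line and 8.79 CPM ± 0.849 in GFP, and SOX2 at 628 CPM ± 5.02 in OSK. The RPE markers MITF, OTX2, PMEL, KRT8 and KRT18 were read, while RPE65, the isomerase of the visual cycle, stayed under 1 CPM in every group. Of all 12 markers, 3 averaged under 1 CPM in WT and in GFP and 4 in GSTA4 and in OSK. In GSTA4, 1 marker was at 0 in all 3 libraries. The summed level of the 12 RPE markers was 2322 CPM in GFP, 1592 in GSTA4, 1381 in OSK and 2497 in WT. This sum rests on the most abundant markers. Of the 9 tested, 7 were lower in GSTA4 and 9 in OSK, both against GFP, while 6 were higher and 2 lower in GFP against WT. Among all genes, 14.6% were lower in GSTA4 and 22.8% in OSK, and 11% were higher and 11.2% lower in GFP against WT. The 15 markers of other cell types summed to 5.84, 2.43, 4.65 and 2.86 CPM in the same order, with the fibroblast gene LUM at 0 in all 12 libraries. The part of the mitochondrial share and of the markers in the results was not tested.

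In the GSTA4 line, members of every role rose relative to GFP. Of the 32 tested members, 18 rose and 3 fell by edgeR's quasi-likelihood test with Benjamini-Hochberg adjustment over all 15179 genes tested. Among all genes, 14.7% rose and 14.6% fell in the same comparison, 29.2% in all, so the share of members that rose, 56.2%, was above the background and the share that fell, 9.38%, below it. The median log2 fold change was 0.29 over the members and 0.01 over all genes. FAS, FDXR and GADD45A had the largest rises and SUSD6 the largest fall. The amount of p53 protein was not measured here, and in bulk RNA fewer cells of a type and less RNA per cell cannot be told apart. All calls in the text use an adjusted p under 0.05, and fold changes are fitted log2 values.

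In OSK the members moved in both directions, as did all genes. Relative to GFP, 9 rose and 11 fell, or 28.1% and 34.4%, against 23.1% and 22.8% of all genes and 45.9% called in either direction. With library size alone as the scaling, 5 rose and 13 fell. The arrest genes (5 of 5) and feedback genes (2 of 4) that passed the test all fell relative to GFP. The death receptors (2 of 4) and repair genes (3 of 4) that passed it rose. Arrest dropped to 3 without GFP replicate 2, and repair to 1 with library size alone or without GFP replicate 1. Feedback dropped to 1 without GFP replicate 1 or 2 or OSK replicate 1 or 3. Of 8 intracellular death genes, 3 rose and 3 fell. The median was -0.09 over the members and -0.02 over all genes. This split by role was weaker against WT. There 2 of 5 arrest genes (4 of 5 without WT replicate 1) and 2 of 4 feedback genes were lower in OSK. The feedback count dropped to 1 with DESeq2, with no filter and without WT replicate 1 or OSK replicate 2 or 3. Of the receptors 1 was higher and 1 lower, and the same held for the repair genes. Among all genes, 22.7% were called in each direction. The GSTA4 and OSK comparisons use the same 3 GFP libraries, so the direct comparison is given as well. In OSK against GSTA4, 2 members were higher and 19 lower, or 6.25% and 59.4%, against 24.1% and 23.8% of all genes and 47.8% in either direction.

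**Figure D1:**
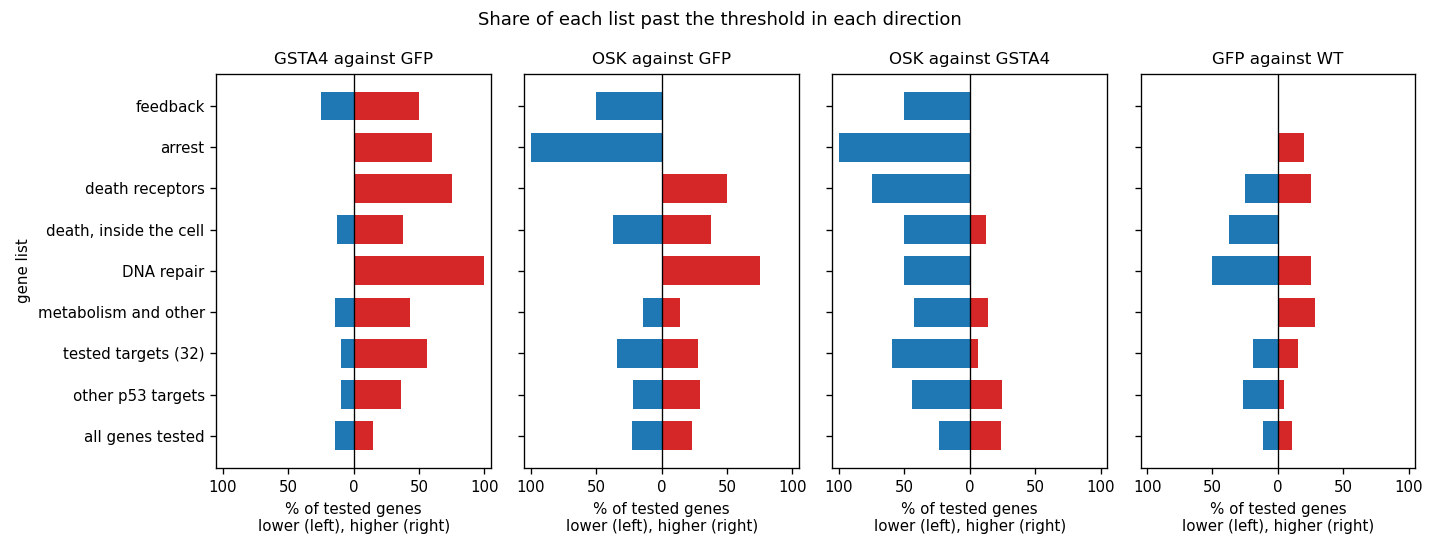
Percent of the tested genes of each role that were higher (red bars, to the right) or lower (blue bars, to the left) past an adjusted p of 0.05 in 4 comparisons, with the 32 tested members together, the other p53 targets and all genes tested at the bottom. The arrest bar runs fully to the left in OSK against GFP (5 of 5) and the repair bar fully to the right in GSTA4 against GFP (4 of 4).

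The GFP line itself differed from WT in fewer members. Relative to WT, 5 of the 32 rose and 6 fell, or 15.6% and 18.8%, against 11% and 11.2% of all genes and 22.2% called in either direction. BTG2, FAS, POLH, ZMAT3 and SUSD6 were higher in GFP, and TNFRSF10B, BAX, AEN, PHLDA3, DDB2 and RRM2B lower. Of these calls, POLH was lost under 5 of 13 alternatives (adjusted p up to 0.0968), ZMAT3 under 6 (up to 0.168) and DDB2 under 6 (up to 0.169), and the log2 fold change of BTG2 was 0.62, or 0.40 without WT replicate 1. Without GFP replicate 2, 7 members were called in place of 11. Without GFP replicate 1, the library that stood apart, 21 members were called in GSTA4 against GFP, 17 in OSK against GFP and 11 in GFP against WT. Against WT instead of GFP, 16 members were higher and 3 lower in GSTA4, where 19.7% and 19% of all genes were (38.6% in all). In OSK against WT, 4 members were higher and 10 lower, where 22.7% of all genes were called in each direction (45.4% in all). Any difference among the 4 groups was called for 26 of the 32, against 66.9% of all genes. GSTA4 had the highest group mean in 20 of the tested members and OSK the lowest in 14. The same counts were not made over all genes, so whether they are unusual cannot be told.

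**Figure D2:**
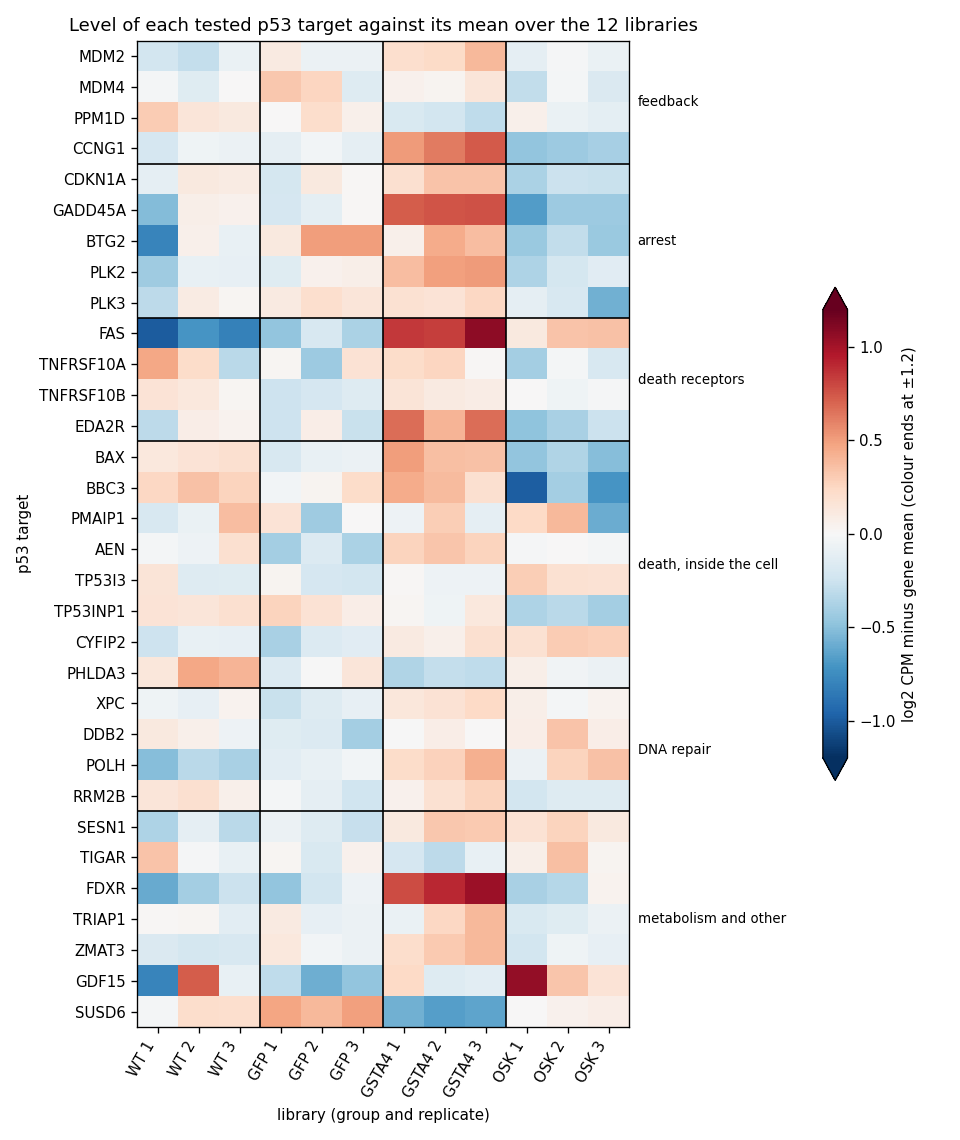
Log2 CPM of each tested member (rows, by role) in each of the 12 libraries (columns), as the difference from the member's mean over the libraries, red above and blue below it, with the colours ending at 1.2 on either side. The GSTA4 columns are high for FAS, FDXR, GADD45A and CCNG1 and low for SUSD6, and the OSK columns are low for the arrest genes.

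Of the 4 feedback genes, which restrain p53, CCNG1 and MDM2 rose and PPM1D fell in GSTA4 against GFP, and CCNG1 and MDM4 fell in OSK. CCNG1, cyclin G1, which recruits a phosphatase to MDM2, lies at chr5:163437571-163457640. It read 238, 251 and 238 CPM in GFP, 366, 396 and 428 in GSTA4, 185, 190.0 and 194 in OSK and 224, 247 and 244 in WT. The GSTA4 libraries were the highest of the 12 and the OSK libraries the lowest. CCNG1 was 1.64-fold higher in GSTA4 than in GFP (log2 fold change 0.71, SE 0.0631, adjusted p 2.53e-08) and lower in OSK (log2 fold change -0.35, SE 0.0636, adjusted p 1.21e-04). MDM2, the ligase that marks p53 for degradation, read 70.8, 62.8 and 62.9 CPM in GFP and 75.7, 77.01 and 86.5 in GSTA4. The GSTA4 libraries again stood above all others, and the rise was small (log2 fold change 0.28, SE 0.0754, adjusted p 0.00713). It fell short of the threshold without GSTA4 replicate 3, at an adjusted p of 0.0538. In OSK the mean of MDM2 was 62.9 CPM, with a log2 fold change of -0.06 (adjusted p 0.566) against GFP.

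PPM1D, a phosphatase that switches off p53 and its activating kinases, ran opposite to CCNG1 and MDM2 in GSTA4. Its libraries read 32.7, 37.7 and 34.1 CPM in GFP and 28.8, 28.1 and 26.5 in GSTA4, and the GSTA4 libraries were the lowest 3 of the 12. It decreased by 0.33 on the log2 scale (adjusted p 0.00788). MDM4, the relative of MDM2 that masks the activating domain of p53, had mean levels of 43.7 CPM in GFP, 41.3 in GSTA4, 35.1 in OSK and 37.7 in WT. MDM4 fell in OSK against GFP (log2 fold change -0.31, SE 0.105, adjusted p 0.0186), a call that was lost when GFP replicate 1 or 2 or OSK replicate 1 or 3 was left out (adjusted p 0.0577 to 0.12). Its difference between GSTA4 and GFP was -0.08 (adjusted p 0.619).

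Among the 5 arrest genes, 3 rose in GSTA4 against GFP (GADD45A, PLK2 and CDKN1A). In OSK against GFP all 5 fell, which became 3 of 5 without GFP replicate 2, and all 5 were lower in OSK than in GSTA4. Among all genes, 14.7% rose in GSTA4 against GFP, 22.8% fell in OSK against GFP and 23.8% were lower in OSK than in GSTA4. CDKN1A encodes p21, the inhibitor of cyclin-dependent kinases through which p53 halts the cycle, and lies at chr6:36676463-36687332. It read 164, 206 and 192 CPM in GFP, 217, 240.5 and 241 in GSTA4, 146, 159 and 158 in OSK and 176, 206 and 204 in WT. The GSTA4 libraries were the highest 3 of the 12 and the OSK libraries the lowest 3. CDKN1A was 1.24-fold higher in GSTA4 than in GFP (log2 fold change 0.31, SE 0.0781, adjusted p 0.00448) and fell in OSK (log2 fold change -0.28, SE 0.0788, adjusted p 0.00614). The fall missed the threshold without GFP replicate 2, at an adjusted p of 0.0577.

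GADD45A, a small protein that binds PCNA and cyclin-dependent kinase complexes after DNA damage, lies at chr1:67685201-67688334. It read 129, 137 and 151 CPM in GFP, 247, 251 and 253 in GSTA4, 93.4, 110.5 and 110.5 in OSK and 104, 156 and 154 in WT. GSTA4 stood well above the other groups, and OSK lay below GFP but overlapped WT. The rise in GSTA4 was 1.80-fold (log2 fold change 0.85, SE 0.108, adjusted p 4.00e-06), and OSK decreased by 0.41 on the log2 scale (adjusted p 0.00450). PLK2, a polo-like kinase induced by stress, whose promoter holds the half-site letters shown above, read 182, 209 and 211 CPM in GFP, 260.0, 283 and 286 in GSTA4 and 155, 174 and 183 in OSK. The GSTA4 libraries did not overlap any other, and those of OSK and GFP overlapped. PLK2 rose in GSTA4 (log2 fold change 0.46, SE 0.0842, adjusted p 2.75e-04). Its fall in OSK (log2 fold change -0.23, adjusted p 0.0300) was lost with DESeq2 and when GFP replicate 2 or 3 or OSK replicate 1 or 2 was left out (adjusted p 0.0526 to 0.181).

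BTG2 and PLK3 showed the fall in OSK without a rise in GSTA4. BTG2, which slows proliferation through the deadenylation of mRNA, read 44.0, 57.5 and 57.4 CPM in GFP, 42.3, 55.2 and 52.5 in GSTA4, 29.8, 33.05 and 29.7 in OSK and 23.4, 42.3 and 38.2 in WT. OSK lay below every GFP and GSTA4 library and within the range of WT. Its log2 fold change was -0.78 (adjusted p 3.17e-04) in OSK and -0.09 (adjusted p 0.709) in GSTA4, both against GFP, the latter with an interval from -0.40 to 0.23. PLK3, another stress-responsive polo-like kinase, had mean levels of 19.6 CPM in GFP, 20.2 in GSTA4, 14.5 in OSK and 16.98 in WT. It was lower in OSK than in GFP (log2 fold change -0.43, SE 0.1249, adjusted p 0.00783) and missed the threshold without OSK replicate 3, at an adjusted p of 0.0622.

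**Figure D3:**
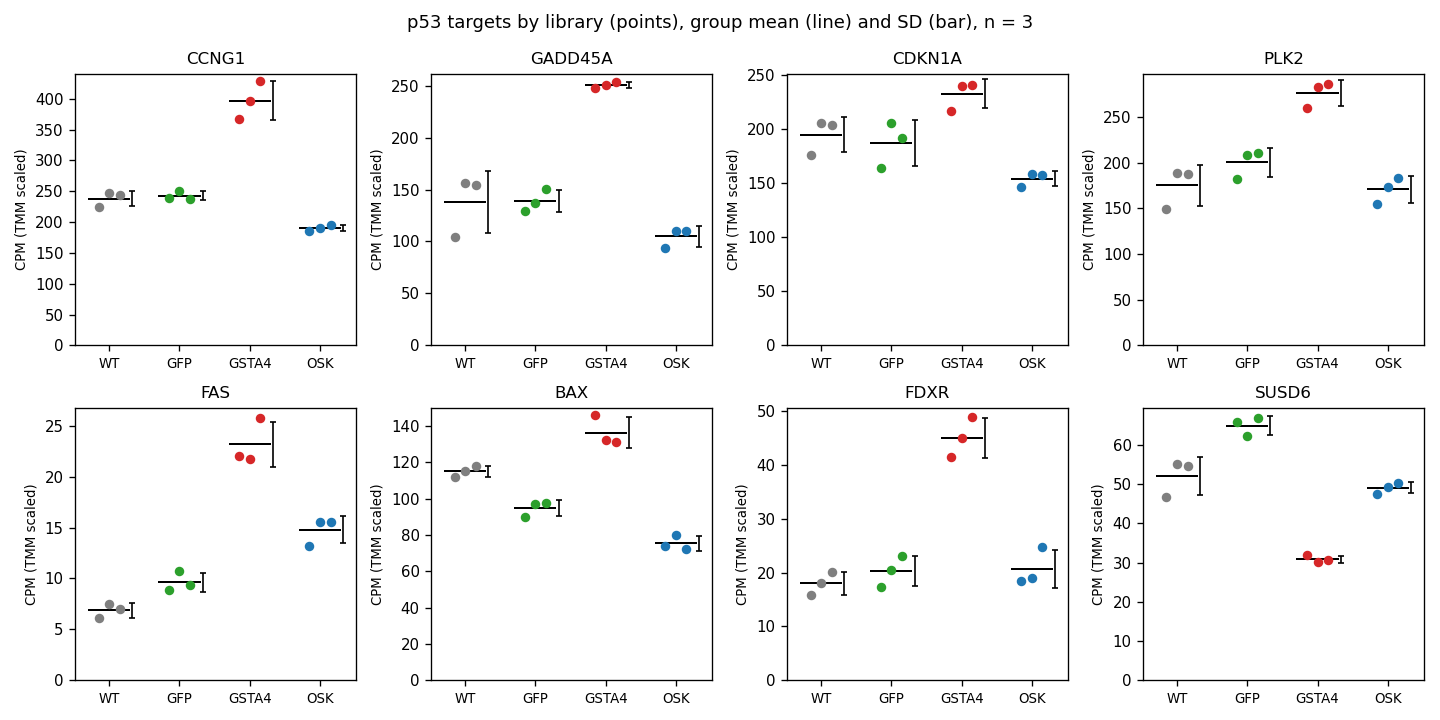
CPM in each library (points) with the mean (line) and SD (bar, n = 3) for 8 members, each panel with its own axis from 0, in WT, GFP, GSTA4 and OSK. The 8 were chosen after their values were seen. GSTA4 libraries are the highest in the panels of FAS, FDXR, GADD45A and CCNG1.

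Death receptors are the outer entry to apoptosis. Of the 4 that were tested, FAS, EDA2R and TNFRSF10B rose in GSTA4 against GFP, and FAS and TNFRSF10B rose in OSK. FAS, the receptor of the FAS ligand, lies at chr10:88964050-89017059. It read 8.82, 10.7 and 9.38 CPM in GFP, 21.99, 21.8 and 25.7 in GSTA4, 13.2, 15.5 and 15.6 in OSK and 6.10, 7.49 and 6.96 in WT. The 4 groups did not overlap at all, in the order WT, GFP, OSK and GSTA4. FAS was 2.40-fold higher in GSTA4 than in GFP (log2 fold change 1.26, SE 0.1252, adjusted p 1.30e-07) and 1.53-fold higher in OSK (log2 fold change 0.62, SE 0.129, adjusted p 5.28e-04). The direct difference of OSK from GSTA4 was also called, at -0.65 (adjusted p 1.29e-04). GFP was above WT by 0.49 (adjusted p 0.0141), a call lost without WT replicate 1 or GFP replicate 2 or in a fit of those 6 libraries only (adjusted p 0.0525 to 0.0753).

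EDA2R, the receptor of ectodysplasin A2, read 28.0, 35.2 and 27.7 CPM in GFP, 52.9, 44.1 and 52.98 in GSTA4 and 23.8, 25.4 and 27.8 in OSK. The GSTA4 libraries were the highest 3 of the 12, while those of OSK and GFP touched. It rose in GSTA4 (log2 fold change 0.72, SE 0.113, adjusted p 5.06e-05) and was lower in OSK than in GSTA4 (log2 fold change -0.96, SE 0.114, adjusted p 4.89e-07). TNFRSF10B, a receptor of the death ligand TRAIL, had mean levels of 154 CPM in GFP, 192 in GSTA4, 174 in OSK and 190.0 in WT. GFP had the lowest 3 libraries. The gene was lower in GFP than in WT (log2 fold change -0.31, adjusted p 5.53e-04), and higher than GFP in both GSTA4 (log2 fold change 0.32, adjusted p 1.71e-04) and OSK (log2 fold change 0.18, adjusted p 0.0121). The OSK call was lost with library size alone, at an adjusted p of 0.119. OSK against GSTA4 read -0.14 (adjusted p 0.0421) and missed the threshold without any 1 of those 6 libraries.

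The remaining receptors of TRAIL were scarce. TNFRSF10A, which carries a death domain as TNFRSF10B does, had mean levels of 7.25 CPM in GFP, 8.47 in GSTA4, 6.57 in OSK and 8.41 in WT. Its adjusted p ran from 0.142 to 0.964 over the 6 pairwise comparisons. TNFRSF10C, a decoy receptor without a death domain, had 0 to 3 reads per library. TNFRSF10D, a decoy with a truncated one, had 14 reads in GFP replicate 1, 2 in GFP replicate 3 and 0 in the other 10 libraries. TNFRSF10C shares 42.7% of its exon bases with other genes, so that even those reads are uncertain.

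Inside the cell, the 8 death genes moved in both directions. In GSTA4 against GFP, BAX, AEN and CYFIP2 rose and PHLDA3 fell. In OSK against GFP, CYFIP2, TP53I3 and AEN rose while BBC3, TP53INP1 and BAX fell. BAX, which opens the outer membrane of mitochondria, lies at chr19:48954875-48961798 and read 89.9, 97.0 and 97.8 CPM in GFP, 146, 132 and 131 in GSTA4, 73.9, 80.0 and 72.3 in OSK and 112, 116 and 118 in WT. The groups did not overlap, in the order OSK, GFP, WT and GSTA4. BAX was 1.44-fold higher in GSTA4 than in GFP (log2 fold change 0.52, SE 0.0634, adjusted p 2.20e-06), fell in OSK (log2 fold change -0.33, SE 0.0647, adjusted p 2.81e-04), and was lower in GFP than in WT (log2 fold change -0.28, adjusted p 0.00370). BBC3, known as PUMA, which neutralises the guardians of the BCL2 family, read 16.2, 16.9 and 19.2 CPM in GFP, 22.4, 21.5 and 18.9 in GSTA4, 8.32, 12.5 and 10.1 in OSK and 19.6, 21.1 and 19.9 in WT. The 3 OSK libraries were the lowest of the 12, and those of the other groups lay close together. BBC3 fell in OSK against GFP (log2 fold change -0.75, SE 0.132, adjusted p 8.60e-05), while GSTA4 read 0.26 (adjusted p 0.121), with an interval from 0.00 to 0.52.

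AEN, a nuclease that cuts nuclear DNA and RNA in apoptosis and one of the pair of promoters with the same half-site letters, read 37.7, 44.6 and 38.3 CPM in GFP, 60.05, 63.1 and 60.2 in GSTA4, 49.5, 50.1 and 49.3 in OSK and 49.3, 48.0 and 57.0 in WT. The GSTA4 libraries were the highest 3 and the GFP libraries the lowest 3. AEN rose in GSTA4 (log2 fold change 0.60, SE 0.0812, adjusted p 8.53e-06) and in OSK (log2 fold change 0.30, adjusted p 0.00452) and was lower in GFP than in WT (log2 fold change -0.36, adjusted p 0.00378). PMAIP1, known as NOXA, another BCL2 antagonist, was scarce in every group, at 3.04 CPM in GFP, 3.30 in GSTA4, 3.35 in OSK and 3.31 in WT. Its adjusted p ran from 0.698 to 0.976 over the 6 pairwise comparisons.

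CYFIP2, a part of the actin-regulating WAVE complex, rose in both ORF lines. It read 183, 213 and 218 CPM in GFP, 257, 250.2 and 274 in GSTA4 and 271, 295 and 292 in OSK. All libraries of both lines lay above those of GFP and WT, with log2 fold changes against GFP of 0.35 (adjusted p 7.33e-04) in GSTA4 and 0.48 (adjusted p 8.56e-06) in OSK. TP53INP1, a stress protein of autophagy, read 122, 114 and 107 CPM in GFP and 78.5, 81.2 and 76.3 in OSK, which held the lowest 3 libraries. It fell in OSK (log2 fold change -0.54, SE 0.0644, adjusted p 6.93e-07), and GSTA4 read -0.14 (adjusted p 0.104). TP53I3, a quinone oxidoreductase, had mean levels of 10.2 CPM in GFP, 10.9 in GSTA4, 13 in OSK and 10.9 in WT. Its rise in OSK (log2 fold change 0.34, adjusted p 0.0348) was lost without any 1 of 5 libraries (GFP replicates 2 and 3 and each OSK library), with DESeq2, with library size alone and with no filter (adjusted p 0.0507 to 0.114). PHLDA3, which competes with AKT for membrane lipids, read 107, 119 and 132 CPM in GFP and 93.4, 98.6 and 96.9 in GSTA4, the lowest 3 libraries. It decreased by 0.31 on the log2 scale (adjusted p 0.00673) and was already lower in GFP than in WT (log2 fold change -0.35, adjusted p 0.00427), and 22.2% of its exon bases are shared with other genes.

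The 4 repair genes all rose in GSTA4 against GFP, and 3 of them in OSK, beside 14.7% and 23.1% of all genes. Against WT, 2 of the 4 were higher in GSTA4 (1 without GSTA4 replicate 3), beside 19.7% of all genes. There DDB2 read -0.01 (adjusted p 0.929) and RRM2B 0.03 (adjusted p 0.725). In OSK against WT, POLH was higher (log2 fold change 0.60) and RRM2B lower (log2 fold change -0.31), beside 22.7% of all genes in each direction. XPC at 0.07 and DDB2 at 0.13 were not called there. XPC, which finds distorted DNA in nucleotide excision repair, read 79.4, 85.7 and 88.8 CPM in GFP, 104.7, 108 and 112 in GSTA4, 100.1, 94.1 and 98.0 in OSK and 92.1, 88.8 and 98.0 in WT. The GSTA4 libraries were the highest 3, and those of OSK and WT overlapped. XPC was higher in GSTA4 (log2 fold change 0.35, SE 0.0631, adjusted p 2.18e-04) and in OSK (log2 fold change 0.20, adjusted p 0.0129) than in GFP. The OSK call was lost with library size alone and without GFP replicate 1 (adjusted p 0.062 to 0.0811), and 24.9% of the gene's exon bases are shared with other genes. DDB2, which finds ultraviolet lesions in chromatin, read 36.9, 36.3 and 30.6 CPM in GFP, 40.7, 43.2 and 40.9 in GSTA4, 43.0, 51.7 and 43.1 in OSK and 44.3, 42.6 and 39.0 in WT. GFP held the lowest 3 libraries, and the other groups overlapped in part. DDB2 rose in OSK (log2 fold change 0.41, SE 0.0914, adjusted p 9.37e-04). Its rise in GSTA4 (log2 fold change 0.27, adjusted p 0.0344) was lost under 7 alternatives, among them DESeq2 and the omission of any 1 GSTA4 library (adjusted p 0.0512 to 0.194).

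POLH, the polymerase that copies past ultraviolet lesions, had mean levels of 28.7 CPM in GFP, 37.8 in GSTA4, 34.8 in OSK and 22.96 in WT. WT held the lowest 3 libraries. POLH rose in GSTA4 (log2 fold change 0.39, SE 0.101, adjusted p 0.00555), and its rise in OSK (log2 fold change 0.28, adjusted p 0.0303) was lost with library size alone and without GFP replicate 1 or 2 or OSK replicate 2 or 3 (adjusted p 0.069 to 0.158). RRM2B, the p53-inducible subunit of ribonucleotide reductase, read 180.3, 170.0 and 156 CPM in GFP, 189.9, 208 and 220.0 in GSTA4, 157, 164 and 164 in OSK and 203, 209 and 192 in WT. GSTA4 and WT overlapped, above all libraries of OSK and GFP. RRM2B rose in GSTA4 against GFP (log2 fold change 0.29, SE 0.0662, adjusted p 0.00229), was lower in GFP than in WT (log2 fold change -0.26, adjusted p 0.00859, lost without GFP replicate 3 at an adjusted p of 0.0538) and read -0.06 (adjusted p 0.507) in OSK against GFP. The count of repair genes that rose in OSK against GFP dropped from 3 to 1 without GFP replicate 1 and with library size alone.

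Among the 8 genes of metabolism and other functions, FDXR, SESN1 and ZMAT3 rose and SUSD6 fell in GSTA4 against GFP. FDXR, the mitochondrial reductase that passes electrons to ferredoxins for steroid and iron-sulfur cluster synthesis, lies at chr17:74862497-74872994. It read 17.3, 20.6 and 23.03 CPM in GFP, 41.5, 45.0 and 48.9 in GSTA4, 18.4, 18.9 and 24.8 in OSK and 15.9, 18.1 and 20.1 in WT. The GSTA4 libraries stood far above the other 9, which overlapped. FDXR was 2.22-fold higher in GSTA4 than in GFP (log2 fold change 1.15, SE 0.122, adjusted p 3.51e-07), and OSK read 0.02 (adjusted p 0.905), with an interval from -0.24 to 0.29.

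SUSD6, a transmembrane protein with a sushi domain, ran the other way. It lies at chr14:69611596-69715144 and read 65.8, 62.1 and 66.9 CPM in GFP, 31.8, 30.0 and 30.6 in GSTA4, 47.5, 49.2 and 50.3 in OSK and 46.6, 55.1 and 54.7 in WT. The GFP libraries were the highest 3 and the GSTA4 libraries the lowest 3, with OSK and WT overlapping between them. SUSD6 fell in GSTA4 (log2 fold change -1.07, SE 0.0775, adjusted p 1.05e-09) and in OSK (log2 fold change -0.41, SE 0.0748, adjusted p 1.54e-04), and was higher in GFP than in WT (log2 fold change 0.32, adjusted p 0.00440). SESN1, a sestrin that restrains the growth kinase mTORC1 under stress, had mean levels of 22.8 CPM in GFP, 30.5 in GSTA4, 29.2 in OSK and 21.3 in WT. Both ORF lines lay above GFP and WT without overlap, at 0.42 (adjusted p 0.00261) in GSTA4 and 0.36 (adjusted p 0.00501) in OSK against GFP. ZMAT3, an RNA-binding regulator of splicing, read 168, 150.2 and 146 CPM in GFP and 178, 192 and 202 in GSTA4, the highest 3 libraries. It rose in GSTA4 (log2 fold change 0.30, adjusted p 0.00179), and OSK read -0.13 (adjusted p 0.108) against GFP.

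The other 4 genes of this group gave fewer calls. TIGAR, a phosphatase that lowers glycolysis, had mean levels of 9.87 CPM in GFP, 8.79 in GSTA4, 11.3 in OSK and 10.8 in WT and shares 45.3% of its exon bases with other genes. It read -0.17 (adjusted p 0.451) in GSTA4 and 0.20 (adjusted p 0.293) in OSK, both against GFP. OSK against GSTA4 read 0.36 (adjusted p 0.0504), which passed the threshold under 6 of 13 alternatives. TRIAP1, a mitochondrial lipid carrier that counters apoptosis, had mean levels of 21.4 CPM in GFP, 24.8 in GSTA4, 19.7 in OSK and 21.2 in WT. Its lower level in OSK than in GSTA4 (log2 fold change -0.33, adjusted p 0.0186) was lost with DESeq2 and without GSTA4 replicate 2 or 3 or OSK replicate 1 or 2 (adjusted p 0.053 to 0.139). GDF15, a secreted stress cytokine that is often a strong p53 target, was close to the limit of detection, at 0.551 CPM in GFP, 0.751 in GSTA4, 1.12 in OSK and 0.797 in WT, and read 1.01 (adjusted p 0.0880) in OSK against GFP. SPATA18, which acts in the clearance of damaged mitochondrial proteins, had 0 to 4 reads per library.

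**Figure D4:**
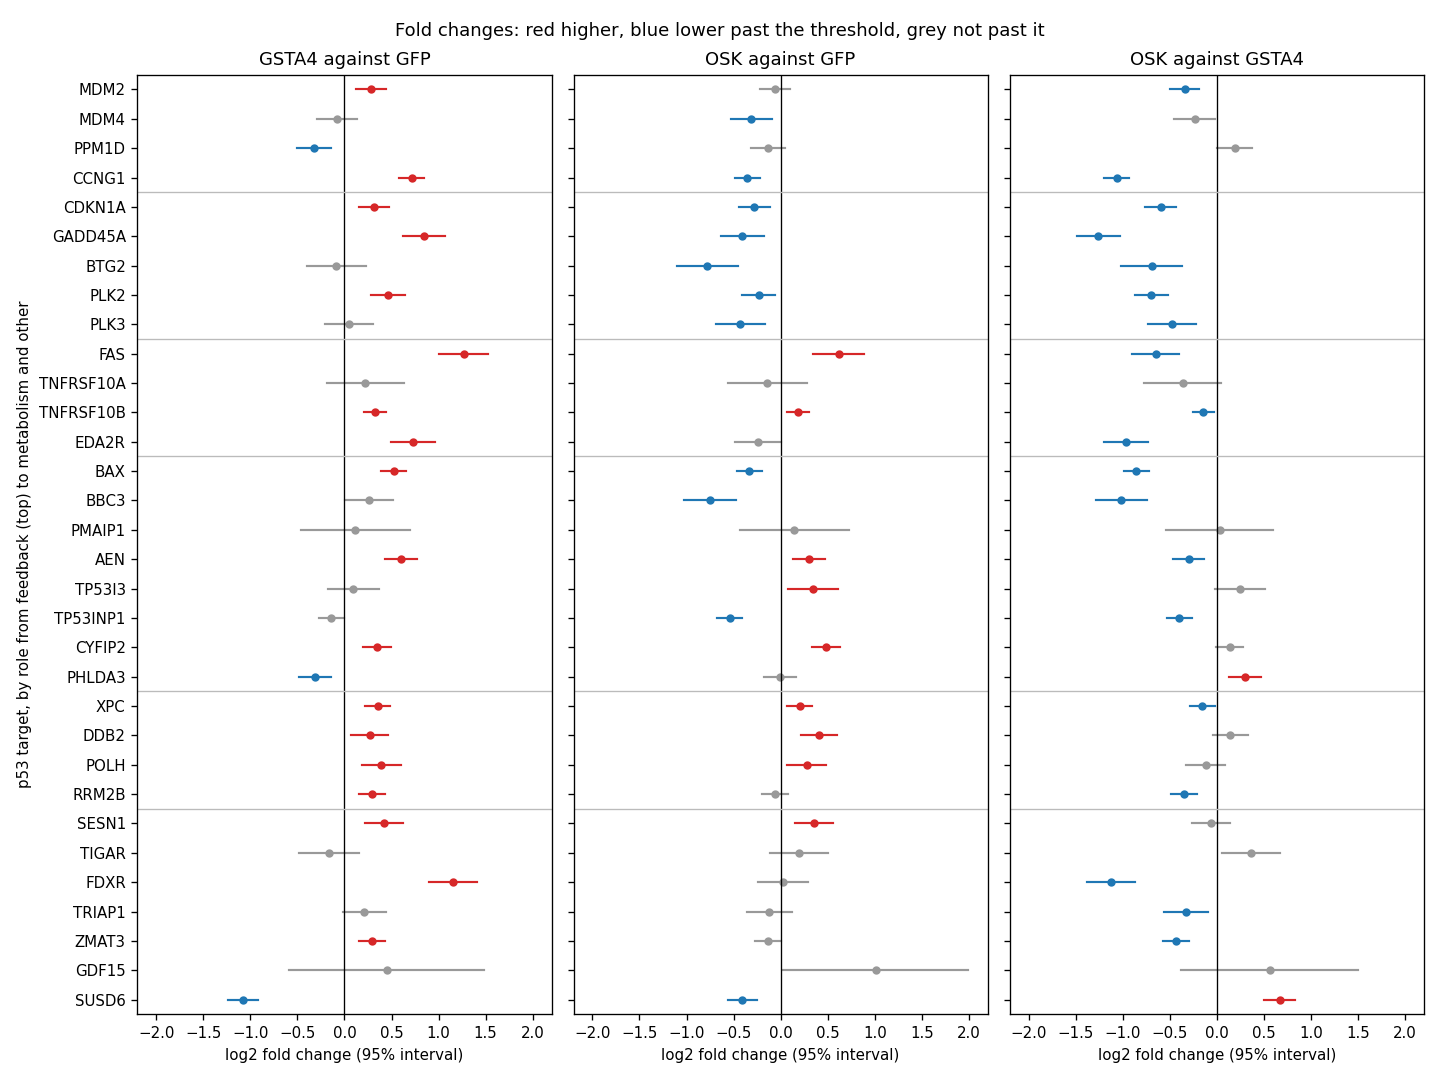
Fitted log2 fold changes (points) with 95% intervals (lines) of the 32 tested members, by role from top to bottom, for GSTA4 against GFP, OSK against GFP and OSK against GSTA4. Red is higher and blue lower past an adjusted p of 0.05, and grey did not pass, with SUSD6 at -1.07 and FAS at 1.26 in GSTA4 against GFP.

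Levels can be set against each other only per length of transcript. On that scale, CPM per kilobase of merged exons in the GENCODE 29 annotation, which need not be the annotation used for the counts, CCNG1 stood at 98.1 in GFP, 161 in GSTA4, 76.8 in OSK and 96.4 in WT. GADD45A stood at 92.9 in GFP, 168 in GSTA4, 70.0 in OSK and 92.5 in WT and CDKN1A at 74.7 in GFP, 92.9 in GSTA4, 61.5 in OSK and 77.8 in WT. These 3 had the highest levels per length of all members in GFP. FAS, with the largest fold change in GSTA4 against GFP, was low on this scale, at 3.73 in GFP and 8.97 in GSTA4. GDF15 and PMAIP1 were low as well, at 0.459 and 1.45 in GFP.

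Beyond its targets, 24 genes of the p53 family and of its regulators were tested. In GSTA4 against GFP, 5 were higher and 3 lower, or 20.8% and 12.5%, which became 3 and 2 without GFP replicate 2. In OSK against GFP, 3 were higher and 10 lower, or 12.5% and 41.7%. Among all genes, 14.7% and 14.6% were called in the first comparison and 23.1% and 22.8% in the second. PPP1R13L, which binds p53 and inhibits its activation of death genes, read 72.7, 94.8 and 84.4 CPM in GFP, 20.7, 18.8 and 21.5 in GSTA4, 59.1, 54.1 and 50.2 in OSK and 78.3, 99.1 and 96.0 in WT. GSTA4 held the lowest 3 libraries and OSK the next, clear of WT and GFP. It fell in GSTA4 (log2 fold change -2.04, SE 0.108, adjusted p 9.73e-12) and was higher in OSK than in GSTA4 (log2 fold change 1.42, SE 0.109, adjusted p 8.55e-10). HIPK2, a kinase that phosphorylates p53 toward its death genes, rose in GSTA4 (log2 fold change 0.93, SE 0.0725, adjusted p 3.42e-09). TP53BP1, which assembles at double-strand breaks, was at 0.47 (adjusted p 3.57e-05) in GSTA4 and at -0.80 (adjusted p 2.17e-08) in OSK, both against GFP.

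Among the family and regulators that averaged at least 1 CPM, the largest difference was that of TP73, which encodes the p53 relative p73. TP73 read 0.532, 0.860 and 0.340 CPM in GFP, 0.699, 0.450 and 0.482 in GSTA4 and 15.8, 14.2 and 12.9 in OSK. In WT it read 0, 0.367 and 0.295 CPM. All OSK libraries were far above the other 9, which stayed under 1 CPM. TP73 was 24.6-fold higher in OSK than in GFP (log2 fold change 4.62, SE 0.329, adjusted p 3.61e-10). E2F1, the cell cycle factor of which TP73 is a known target, read 9.28, 9.03 and 10.6 CPM in GFP, 8.26, 9.01 and 7.84 in GSTA4, 33.6, 37.0 and 37.4 in OSK and 5.29, 4.41 and 4.42 in WT and also rose in OSK (log2 fold change 1.90, SE 0.113, adjusted p 2.20e-11). E2F1 was higher in GFP than in WT as well (log2 fold change 0.96 to 1.12 over the alternatives). TP73 was not called there under any alternative (log2 fold change 0.79 to 1.87, adjusted p 0.0668 to 0.362). With 0 to 12 reads per library in WT and GFP, a difference in TP73 between them is poorly measured. Whether E2F1 has a part in the level of TP73 was not tested. CHEK1, the kinase of the replication checkpoint, rose in OSK as well (log2 fold change 1.27, SE 0.121, adjusted p 2.88e-08) and was higher in GFP than in WT (log2 fold change 0.91, adjusted p 8.20e-05).

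A second list of 45 reported p53 targets, none of them members, gave 41 tested genes. In GSTA4 against GFP 15 were higher and 4 lower, or 36.6% and 9.76%, beside 14.7% and 14.6% of all genes. In GSTA4 against WT 15 were higher and 10 lower, or 36.6% and 24.4%, beside 19.7% and 19% of all genes. ATF3, a stress-induced transcription factor, rose most (log2 fold change 1.74, SE 0.195, adjusted p 7.56e-07), and CMBL, a hydrolase, rose too (log2 fold change 1.27, adjusted p 3.97e-06). THBS1, thrombospondin, a secreted inhibitor of angiogenesis, fell (log2 fold change -1.37, SE 0.109, adjusted p 4.58e-09). In OSK against GFP 12 were higher and 9 lower, or 29.3% and 22%, beside 23.1% and 22.8% of all genes, with STOM (log2 fold change 1.25, adjusted p 4.79e-09) and RETSAT (log2 fold change 1.12, adjusted p 7.77e-12) the largest rises and VWCE (log2 fold change -1.42, adjusted p 0.00490) the largest fall of those averaging at least 1 CPM. In OSK against GSTA4 10 were higher and 18 lower, or 24.4% and 43.9%, beside 24.1% and 23.8% of all genes, and ATF3 stood at -1.79 (adjusted p 1.45e-07). In GFP against WT 2 were higher and 11 lower, or 4.88% and 26.8%, beside 11% and 11.2% of all genes, with EPHA2, a receptor kinase, at -0.84 (adjusted p 2.32e-05) and DRAM1, an inducer of autophagy, at -0.66 (adjusted p 0.00135). DRAM1 stood at -0.37 without WT replicate 1.

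Active p53 also lowers cell cycle genes indirectly, through p21 and the DREAM repressor complex. Of 25 such genes, all tested, 1 was higher and 9 lower in GSTA4 against GFP, or 4% and 36%, with a median log2 fold change of -0.34. In OSK against GFP 22 were higher, or 88%, with a median of 1.09. The shares of all genes were 14.7% and 14.6% in the first comparison and 23.1% higher in the second. Without GFP replicate 2 or without GSTA4 replicate 2, 6 were lower in GSTA4 and BUB1B, the 1 that was higher (log2 fold change 0.60, adjusted p 0.0448), was not called. CHEK2 is in this list and in that of the regulators. The list also moved between the controls, where 23 of 25 (92%, beside 11% of all genes) were higher in GFP than in WT, with a median of 1.58. In GSTA4 against WT 22 were higher (88%, beside 19.7% of all genes), with a median of 1.204, the opposite direction to the comparison with GFP. CCNA2, the cyclin of S phase, read 21.9, 22.7 and 23.03 CPM in GFP, 10.6, 14.6 and 11.2 in GSTA4, 39.99, 51.4 and 52.9 in OSK and 6.34, 9.25 and 11.2 in WT. The order was WT, GSTA4, GFP and OSK, with only WT and GSTA4 overlapping. CCNA2 fell in GSTA4 against GFP (log2 fold change -0.90, SE 0.156, adjusted p 1.67e-04) and was higher in OSK than in GSTA4 (log2 fold change 1.99, SE 0.1499, adjusted p 5.86e-10). CENPA, the centromere histone, was lower in GSTA4 than in GFP (log2 fold change -0.84, adjusted p 0.0188), which missed the threshold without GFP replicate 2 or GSTA4 replicate 3 (adjusted p 0.0602 to 0.0615). In OSK against GFP, E2F1, BUB1B (log2 fold change 1.90, adjusted p 1.65e-07) and PLK1 (log2 fold change 1.47, adjusted p 1.14e-08), genes of S phase entry and mitosis, had the largest rises of those averaging at least 1 CPM. In GFP against WT, CENPA (log2 fold change 2.63, adjusted p 7.00e-06), RRM2 (log2 fold change 2.58, adjusted p 2.55e-08) and BUB1 (log2 fold change 2.53, adjusted p 2.13e-09) did. Cell cycle genes thus moved together with the groups, in OSK against GFP beside lower arrest genes. In GSTA4 and in GFP against WT no arrest gene was called lower beside them. In GSTA4 against WT 4 of 5 arrest genes were higher too (2 without GSTA4 replicate 2), beside 19.7% of all genes. In GFP against WT 1 of 5 was higher and 0 lower, beside 11% and 11.2% of all genes. In OSK against WT 24 of the 25 cell cycle genes were higher, and 2 of 5 arrest genes were lower (4 without WT replicate 1). Among all genes, 22.7% were called in each direction there. The part of the cell cycle genes in the members' differences was not tested.

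**Figure D5:**
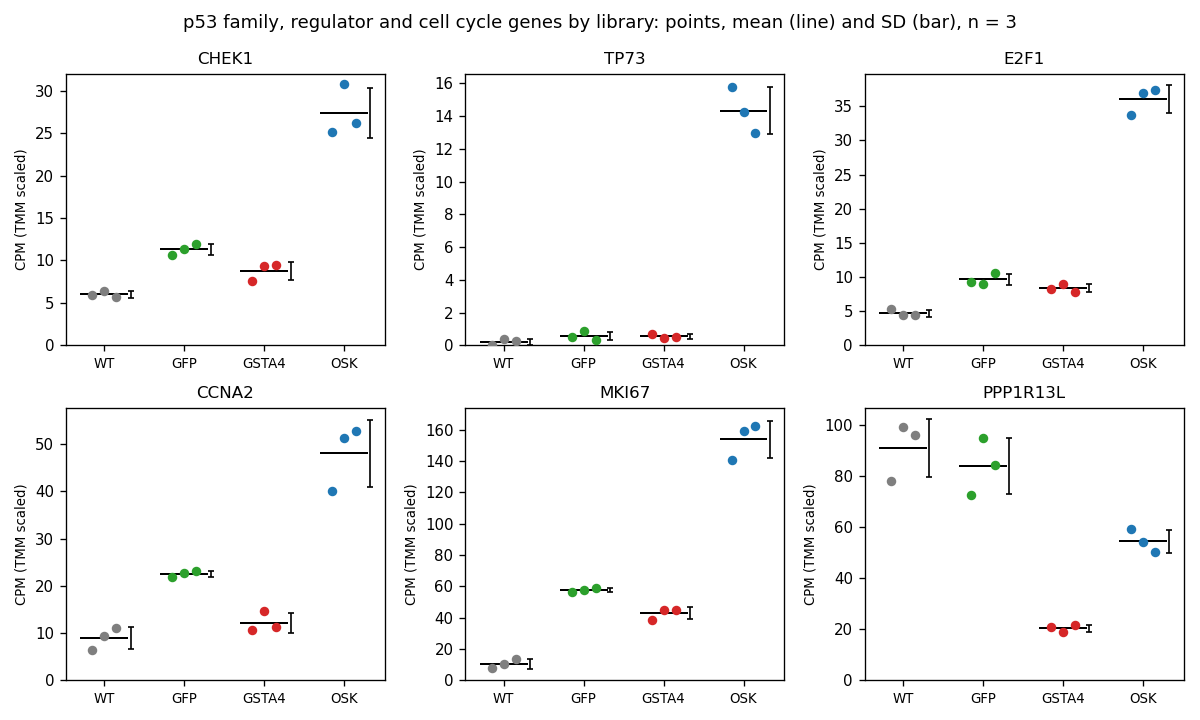
CPM in each library (points) with the mean (line) and SD (bar, n = 3) for CHEK1, TP73, E2F1, CCNA2, MKI67 and PPP1R13L in WT, GFP, GSTA4 and OSK, each axis starting at 0. The 6 genes were chosen after their values were seen. OSK stands apart in CHEK1, TP73, E2F1, CCNA2 and MKI67, and GSTA4 in PPP1R13L.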

How the data were processed

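Raw read counts per gene, whole numbers, make up the deposited table, which the authors made with STAR 2.7.1a and featureCounts 1.6.2 on GRCh38, per the submitters' processing notes, which also name GRCm38. Annotation release and strand setting are not given in the sources used here, so a gene that overlaps another may hold reads of both. Of 60605 lines, 20014 had no symbol (0.485% to 0.822% of reads) and were left out. The 40591 named lines were filtered with filterByExpr by group, which left 15179, and scaled by TMM. All 12 libraries entered a single fit with edgeR 4.0.16 (limma 3.58.1, R 4.3.3), and the quasi-likelihood test gave p-values, two-sided, adjusted by Benjamini-Hochberg within each comparison, with 0.05 as the threshold. CPM are counts after TMM scaling of every library to the same size, with SD over n = 3. Intervals are 95%. No batch or date is given in the labels. The members, roles and other lists were chosen with earlier results of these data known. Every member is named. Some genes outside the members are not reported here. From each other list, up to 3 genes with the largest absolute log2 fold change were taken per comparison, if past the threshold and averaging 1 CPM or more. The fit was tested on simulated data. Alternatives were DESeq2 1.42.0, scaling by RLE or by library size alone, genes unfiltered or averaging 1 CPM or more, a replicate block, a fit of the 6 libraries in question, a log2 fold change of 1 as the minimum, and leaving out each library. The same alternatives for the lists and for genes outside the members were chosen after seeing the data.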

Additional observations from a re-analysis of the deposited data

How the results depend on the processing

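The number of members past the threshold ranged from 19 to 21 when each library was left out in turn in GSTA4 against GFP, where it was 21, from 15 to 18 in OSK against GFP (20), from 7 to 11 in GFP against WT (11), from 18 to 20 in OSK against GSTA4 (21), from 16 to 20 in GSTA4 against WT (19), from 12 to 16 in OSK against WT (14) and from 25 to 27 for any difference among the groups (26). A minimum log2 fold change of 1, which by construction keeps fewer genes, left 3, 0, 0, 4, 2 and 1 members in the 6 pairwise comparisons in that order. The same rule kept 5.7%, 11.6%, 3.31%, 13.1%, 7.82% and 12.2% of all genes. For edgeR's 0 in OSK against GFP and in GFP against WT, at an unadjusted p under 0.05 the counts are 1 (GDF15) and 0. The other alternatives gave 20 to 21, 18 to 20, 8 to 12, 18 to 24, 19 and 12 to 15 members in the same order. Of 106 member fold changes past the threshold, 82 stayed past it under each of 13 alternatives per comparison, the minimum change not counted, and 0 changed sign while past it. The labels do not say whether libraries with the same replicate number belong together. Over 18 pairs of same-numbered libraries, the correlation of deviations ran from -0.03 to 0.183, with 3 over 0.1. These were WT replicate 1 with replicate 1 of GFP (0.181), GSTA4 (0.183) and OSK (0.151). With libraries numbered 2 or 3 in those groups, WT replicate 1 read -0.121 to -0.052. Of 12 libraries, 8 correlated best with their own number. With the replicate number as a block, 21, 20, 12, 22, 19 and 14 members were called, and 26 for any difference. Genes under about 1 CPM, such as GDF15, are limited by depth.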
